A study of Rattus norvegicus with 12 samples.

Results

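Of the 11478 probes in the deposited table with at least 3 values in each treatment, 29 had a mean log2 ratio to the vehicle-treated reference of -0.58 or lower after estradiol (E2), after growth hormone (GH) and after both hormones given together. These 29 probes are described here. They were selected on the measured ratios themselves, so their fall below the reference in each treatment is what defined them and not a result. On this scale 0 is no difference from the reference and lower values are lower signal, and the whole table held 22163 rows. The same limit in the opposite direction gave 33 probes raised after all 3 treatments.

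GH acts on the liver through its receptor and the JAK2-STAT5b pathway, and the temporal pattern of its secretion sets much of the sex difference in hepatic gene expression in the rat. Estrogens act in hepatocytes through estrogen receptor alpha, and also induce SOCS2, an inhibitor of GH signaling. The study asked how these hormones interact in liver, and the probes below the reference after either hormone alone and after both are the part of that question described here.

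Liver RNA came from male Sprague-Dawley rats, 3 months of age per the labels of the reference channel, that were hypothyroid and orchidectomized (TXOX). Hypothyroidism was produced with methimazole at 0.05% in the drinking water for 5 weeks. This holds for every group, the reference included. The TXOXE2 group received E2 benzoate at 50 µg/kg subcutaneously on 5 days/week for 27 days. The TXOXGH group received GH at 0.3 mg/kg/day for 7 days, and the TXOXE2GH group received E2 and GH in combination. By the study's methods, E2 or vehicle was given first, and GH was then added for 7 days while E2 or vehicle continued. The GH injections were timed to mimic the male secretion pattern. Each group had 4 arrays. The treated animal was taken to be in Cy5 and TXOX RNA in Cy3, as the channel characteristics give them, although the source label names the treated group for both channels, and the sign of every ratio to TXOX rests on this assignment. Since hypothyroidism and castration are carried by the reference too, the groups model hormone replacement in such animals and not intact rats. The dyes were not swapped, so treatment and dye cannot be told apart in a ratio to TXOX. The 3 comparisons with TXOX also share that reference, and the sources used here do not say how the TXOX animals were distributed over the arrays. The dye effect cancels in a difference between treatments.

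The arrays carried 70-base oligonucleotides, and the files name each probe by a collection identifier only. None of these identifiers matched the gene tables used here, so the transcripts behind the 29 probes, their functions, and the cell type markers of liver were not analysed here. Only 2 members are given by identifier, chosen by a rule on their level and signal. All are numbered from 1 to 29, from the lowest to the highest mean of the 3 group means. Across the 12 arrays, 19130 to 22346 probe spots were unflagged, and 24.9% to 60.7% of probe spots in Cy5 and 38.7% to 54.6% in Cy3 lay above local background, meaning that at least 50% of their pixels exceeded background plus 2 SD. Fewest Cy5 spots were above background on TXOXE2 replicate 2.

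Member 1, probe Rn30012333, had the lowest mean of the class in each group of the deposited table. The log2 ratios were -1.77, -1.76, -2.54 and -3.36 on the 4 TXOXE2 arrays, -0.82, -2.16, -1.70 and -1.74 on the TXOXGH arrays, and -1.82, -2.98, -3.12 and -2.25 on the TXOXE2GH arrays. Every array lay below the threshold, and the ranges of TXOXE2 and TXOXGH overlapped, as did those of TXOXE2GH and TXOXGH. The group means were -2.36 ± 0.77 after E2, -1.61 ± 0.56 after GH and -2.54 ± 0.62 after both (SD, n = 4). The reference signal of this probe was bright, at a mean log2 intensity of 12.9, 12.6 and 13 in Cy3 on the TXOXE2, TXOXGH and TXOXE2GH arrays, against 10.4, 10.9 and 10.4 in Cy5. Both channels were above background on all 12 arrays, so the low ratio was measured on both sides.

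Member 2, probe R004447_01, was much more variable. Its log2 ratios were -2.39, -0.53, -1.50 and -0.64 after E2, -1.24, -1.82, -0.90 and -0.95 after GH, and -4.48, -1.74, -0.23 and -1.03 after both. The TXOXE2GH arrays alone ran over the span of all the others, and Cy5 was not well above background on the array at -4.48, so that value is no exact ratio. Without that array the mean of -1.87 in the group was -0.998, a change of 1.83-fold. In the limma fit over all probes, this probe was called lower than TXOX after the combination only (adjusted p 0.0201).

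The depth of the members is given here for each treatment. Over all 29, the median of the group means was -0.90 after E2 (range -2.36 to -0.59), -0.86 after GH (-1.61 to -0.59) and -0.91 after both (-2.54 to -0.59), where the median of all 11478 probes was 0.04, 0.00 and -0.01. A mean of -1 or lower was found in 10 members after E2, 10 after GH and 13 after both, and in 4 members in all 3 groups. These 4 were members 1, 2, 3 and 6, of which member 2 rests on the array named above, member 3 on a dim Cy5 signal and member 6 on spots with saturated pixels on 6 of 12 arrays. The other members at the deep end were deep in some treatments and less so in others, as in members 4 and 5 after GH and member 8 after E2.

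Members 3, 6 and 7 followed. Member 3 had log2 ratios of -1.68, -1.07, -1.14 and -1.03 after E2, -1.88, -0.82, -1.84 and -1.24 after GH, and -2.37, -1.91, -1.29 and -1.08 after both, but its Cy5 signal was not well above background on any array, so these values are no exact ratios. Member 7 had -1.44, -1.20, -0.57 and -0.64 after E2, -1.53, -0.98, -1.39 and -1.0 after GH, and -1.60, -1.32, -1.55 and -1.18 after both, with the narrowest spread after the combination. Member 6, partly saturated, had -0.805, -1.11, -1.54 and -0.91 after E2. It had 3 values in TXOXGH (-1.34, -0.43 and -1.68) and 3 in TXOXE2GH (-1.48, -2.09 and -0.97). At the other end of the class, member 28 had -0.91, -0.62, -0.60 and -0.56 after E2, -0.46, -0.73, -0.58 and -0.60 after GH, and -0.25, -0.71, -1.08 and -0.46 after both, straddling the limit in each group, and member 26 had -0.24, -0.90, -0.72 and -0.83, -0.79, -0.87, -0.60 and -0.70, and -0.55, -1.0, -0.62 and -0.78 in the same order.

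Single arrays were less uniform than the group means. Of the values of the members, 111 of 115 after E2, 112 of 114 after GH and 109 of 113 after both were below 0, whereas 85, 86 and 92 were at -0.58 or lower. All 4 arrays were at the threshold in 8 members after E2, 9 after GH and 11 after both. The median SD over 4 arrays was 0.49, 0.36 and 0.42. The values not below 0 were gathered on few arrays. On TXOXE2GH replicate 3 they came from members 12, 13, 14 and 24 (0.04, 0.02, 0.19 and 0.26), on TXOXE2 replicate 2 from members 21, 24 and 29 (0.09, 0.18 and 0.02), on TXOXGH replicate 3 from members 9 and 11 (0.31 and 0.17), and on TXOXE2 replicate 3 from member 9 (0.07).

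The mean over the members was -1.25, -0.62, -0.89 and -1.13 on the 4 TXOXE2 arrays, -0.98, -1.10, -0.83 and -0.91 on the TXOXGH arrays, and -1.14, -1.25, -0.97 and -0.99 on the TXOXE2GH arrays. By group this was -0.97 ± 0.28, -0.95 ± 0.12 and -1.09 ± 0.13 (SD, n = 4), and the 3 groups overlapped. The spread was widest after E2, between replicate 1, the lowest, and replicate 2, the highest. Replicate 1 also carried the most weight in the selection. Without it, 21 of the 29 probes still met the rule, whereas without any other single array 24 to 29 did.

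How close the class stands to its limit can be read from the probes on either side. The members nearest to it were number 22 (-0.59 after E2, -0.87 after GH, -0.80 after both), number 24 (-0.68, -0.96 and -0.59) and number 15 (-1.0005, -0.59 and -1.16). Just outside, 1 probe had means of -0.58, -0.62 and -0.63 in the same order, its E2 mean lying short of the limit only in the next decimal, and another had -0.59, -0.71 and -0.57. Another reached -3.15 after E2 and -2.87 after both but stopped at -0.57 after GH. There were 127 probes that passed in 2 groups and missed the other. E2 was the missed treatment for 65 of them, GH for 53 and the combination for 9. Of the 65, 13 were not below 0 after E2. Of the 53, 7 were not below 0 after GH, and 0 of the 9 were at 0 or above after the combination. In all, 12 members were kept in the class whichever single array was left out, and 17 were lost with at least 1, member 24 with 5 of the arrays and member 27 with 4.

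The ratios were recomputed from the spot intensities, background-corrected and normalized by a single loess curve per array, and fitted with limma over the 12 arrays. All 29 members were again at -0.58 or lower in each group, with medians of -0.98, -0.96 and -1.09. These come from the same spots and are not independent support. At the study's fold limit of -0.58 together with an adjusted p below 0.05, 27 members were called lower after E2, 22 after GH and 24 after both, beside 3.14%, 1.33% and 2.21% of all probes tested. In total, 20 members were called in all 3 comparisons, beside 0.202% of all probes, and 12 members with a loess curve for each printed block of the slide. Because the rule used these contrasts, the counts describe the members and nothing is read from the difference. Of the 36 probes called in all 3, 16 were not members. Of the members not called in all 3, 4 were called in 2 comparisons (members 11, 14, 15 and 17) and 5 in 1 (members 2, 9, 13, 21 and 24).

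The probes of the class were brighter than most. Their mean log2 intensity over both channels had a median of 10.1 (range 7.62 to 13.1), against 8.72 for the 11478 probes, and 18 of 29 were above the upper quartile of 9.54. The deposited table had a value on all 12 arrays for 26 members and 10 values for members 6, 9 and 13. Both channels were above background on all 12 arrays for 17 members and on 9 or more arrays for 25. Cy3 was above background on all 12 arrays for 27. In members 3 and 22 the Cy5 signal was not well above background on any array, and in member 9 on none of the TXOXE2 arrays, so their ratios there are no exact values. In member 9, Cy5 was above background on only 1 of 4 TXOXGH and 1 of 4 TXOXE2GH arrays, and Cy3 on 3 of 4 in each. Its ratios in these groups are therefore not exact either. In the recomputed intensities, the dim side of member 3 was set to the dimmest well-measured signal of each array. Member 3 was then 1.97-fold lower after E2, 2.29-fold lower after GH and 2.72-fold lower after both. That signal is no detection limit of this spot, so these folds are not bounds, and they are open to the dye. The same step made the changes of members 9 and 22 smaller than in their recomputed ratios. Member 9 after E2 had a log2 fall of 1.48, against a recomputed ratio of -1.68. Member 22 had falls of 0.80, 0.99 and 0.61 after E2, GH and both, against recomputed ratios of -1.002, -1.27 and -1.29. Against the deposited ratios, which were processed differently, these falls were larger except in member 22 after both. In member 5, Cy5 was above background on 8 of 12 arrays. Saturated pixels occurred on 6 arrays in member 6, on 3 in member 13 and on 2 in member 26.

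In the direct comparisons of treatments the dye cancels. They are differences of the group means that the rule limited, so they are not independent of the selection, and nothing is read from the share of members that passed. E2 against GH asks whether these probes stood at the same depth after each hormone. In the deposited means 14 members were lower after E2 and 15 after GH, and in the limma fit 15 and 14. The median fitted difference, E2 minus GH, was -0.06 on the log2 scale, with a range of -0.96 in member 4 to 0.76 in member 12 and a median SE of 0.26. No member passed an adjusted p of 0.05 in limma (lowest adjusted p 0.194), beside 1.11% of all probes. At an unadjusted p under 0.05 there were 5 members, 17.2% of the class, against 12.6% of all probes. A difference that missed the threshold does not show that the hormones acted alike. In member 26, which had the smallest range of group means (0.07), the 95% interval of E2 minus GH ran from -0.31 to 0.43.

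The 5 members at an unadjusted p under 0.05 pointed both ways, and there were 3 when only spots above background in both channels were used. Members 4 and 5 were lower after E2 than after GH. Member 4 had log2 ratios of -1.77, -0.55, -1.67 and -2.41 after E2, -0.30, -1.27, -0.58 and -0.87 after GH, and -1.64, -1.98, -1.41 and -1.54 after both. All TXOXE2GH arrays were below all TXOXGH arrays, while 1 TXOXE2 array, replicate 2, stood among the TXOXGH values. Its difference E2 minus GH was -0.96 (SE 0.33, 95% interval -1.65 to -0.27, adjusted p 0.203), and without TXOXE2 replicate 2 it was -1.36 with an adjusted p of 0.0158 in limma. Leaving out the array that stood apart was bound to enlarge the difference, and no other left-out array gave a call of a member in this contrast. Without that array, 154 of all probes were called. In member 5 the difference was -0.78 (SE 0.26, adjusted p 0.194). Cy5 was above background on 3 of 4 arrays of TXOXE2 and 3 of 4 of TXOXE2GH in member 4, on 2 of 4 in each in member 5, and on 4 of 4 TXOXGH arrays in both.

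Members 8, 10 and 12 were lower after GH than after E2. Member 12 had log2 ratios of -1.45, -1.60, -1.43 and -1.61 after GH, the tightest set of the class, against -1.11, -0.05, -1.07 and -1.07 after E2 and -0.67, -0.94, 0.04 and -1.82 after both. The TXOXE2 arrays all lay above the TXOXGH arrays. E2 minus GH was 0.76 (SE 0.33, adjusted p 0.347) in member 12, 0.63 (SE 0.26, adjusted p 0.322) in member 8 and 0.60 (SE 0.24, adjusted p 0.301) in member 10.

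Setting TXOXE2GH against TXOXGH asks how rats given both hormones differed from those given GH alone. In the deposited group means the combination was lower than either hormone alone in 15 members, lay between them in 10 and was above both in 4. The rule limited these means and the order was not counted over all probes, so nothing is read from it. Against GH, the median difference was -0.07 (range -1.01 in member 4 to 0.69 in member 12), with 19 members lower and 10 higher. The median difference of all probes was -0.01. No member was called in the fit over 12 arrays (lowest adjusted p 0.666), where 0% of all probes were called and 1111, or 5.94%, had an unadjusted p under 0.05, against 4 members, 13.8%. Arrays of these groups with the same replicate number deviated together over all probes, and were taken as pairs. In the paired fit of the 8 arrays, 2 members were called, beside 0.401% of all probes. Both were lower with E2, as were 53 of the 75 probes called in that fit, against 22 higher. Member 1 had a difference of -0.95 (SE 0.15, adjusted p 0.0174), with -0.97, -0.77, -1.52 and -0.56 in the 4 pairs. Member 4 had a difference of -1.01 (SE 0.13, adjusted p 0.0064), with -1.45, -0.77, -0.92 and -0.89. Member 5, the next, reached -0.69 (SE 0.15, adjusted p 0.0851). The pairing rests on the data alone. With it entered as a replicate block over all 12 arrays, 0 members and 0 of all probes were called, so that fit says nothing particular to the members.

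Against E2 alone, the combination gave a median difference of -0.09 (range -0.66 in member 8 to 0.58 in member 13), with 20 members lower and 9 higher. The median difference of all probes was -0.02. No member was called (lowest adjusted p 0.232), beside 0.708% of all probes, and 2 members (7 and 8) had an unadjusted p under 0.05, 6.90% against 15.3% of all probes. Member 8 was at -0.58, -1.01, -0.70 and -0.83 after E2 and at -1.11, -1.24, -2.07 and -1.26 after both, so that the arrays of these groups did not overlap, and its difference was -0.66 (SE 0.26, adjusted p 0.248). Without TXOXE2 replicate 1, the lowest array of member 20 by far at -1.73 against -0.36 to -0.25 on the other 3, member 20 was called lower after the combination at -0.69 (adjusted p 0.0459 in limma). Here too the choice of array was bound to enlarge the difference, and no other left-out array gave a call of a member. Without that array, 67 of all probes were called.

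The spots printed around the members were also low on average. The array is printed in 48 blocks, and the members lay in 18 of them, 11 blocks with 1 member, 3 with 2 and 4 with 3, the last being blocks 3, 7, 8 and 24. For each member the median ratio of the up to 24 spots around it was taken. It was below 0 around 24 members after E2, 24 after GH and 26 after both, with medians of -0.20, -0.16 and -0.12. Likewise 24, 25 and 25 of the members sat in blocks whose median ratio was below 0, when 23, 28 and 25 of the 48 blocks were. Blocks 7 and 8, for example, had medians of -0.27 and -0.41 after E2. Member 15 was an exception, in a block with a median of 0.32 after E2.

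With a loess curve for each block, the medians of the members became -0.79, -0.82 and -0.99, 23, 27 and 27 members stayed at the threshold after E2, GH and both, and 22 did in all 3. The 7 that left were members 8, 16, 18, 23, 24, 26 and 28. Subtracting the surrounding spots gave -0.80, -0.85 and -1.02, with 19 members at the threshold in all 3. Members 1 and 2 stayed deep with the curve per block, at -1.96, -1.34 and -2.32 and at -1.16, -1.12 and -1.84. Between 22 and 25 members thus stayed at the threshold in each group after the surrounding spots were subtracted. Whether the local level belongs to the slide or to the probes printed there was not tested.

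Some members were neighbours in the oligonucleotide plates or on the slide. Members 4 and 5, members 8 and 10, and members 20 and 29 came from wells 2 apart in a plate row, and were printed in different blocks. Members 7 and 18, and members 14 and 24, were touching spots of 1 block. In members 4 and 5, and in members 20 and 29, the probe identifiers carry consecutive numbers. The mean absolute difference over the 12 arrays was 0.27 for members 4 and 5, 0.30 for members 8 and 10, 0.26 for members 20 and 29, 0.40 for members 7 and 18 and 0.20 for members 14 and 24, against a median of 0.64 over the 406 pairs of members (range 0.15 to 1.54).

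Some neighbours were alike across treatments. Members 4 and 5 were at -1.60 and -1.48 after E2, -0.76 and -0.84 after GH, and -1.64 and -1.44 after both, the E2-deep pattern given above. Members 8 and 10 were the reverse for the single hormones, at -0.78 and -0.84 after E2 and -1.38 and -1.41 after GH, but after both they stood at -1.42 and -1.10. Members 14 and 24 were often close, near or above 0 on TXOXE2 replicate 2 (-0.04 and 0.18) and on TXOXE2GH replicate 3 (0.19 and 0.26), and at -1.84 and -1.81 on TXOXGH replicate 2. They were furthest apart, by 0.78, on TXOXGH replicate 1 (-1.96 and -1.18). Members of such pairs cannot be counted as separate observations, and whether a pair reports 1 transcript or 1 region of the slide was not tested.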

How the data were processed

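The authors deposited GenePix scanner output for 12 two-colour arrays, with foreground and local background intensity of each spot, percent columns for pixels over background and for saturation, spot flags, and a table of LOWESS-normalized log2 ratios of treated to TXOX liver. Each of the 12 columns of that table correlated best with its own array's recomputed ratios (r = 0.890 to 0.987; at most 0.635 with another array), so the table holds Cy5 over Cy3. Which RNA was in which channel comes from the labels, whose source field names the treated group for Cy3 too while the characteristics give vehicle-treated TXOX. The members were found in this table, of which 1894 rows were empty on every array. The study itself tested with SAM.

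From the intensities, background was corrected with normexp (offset 50) in limma 3.58.1 (R 4.3.3), followed by global loess. Of 27648 spots, 554 control or empty spots and any with a flag were dropped, and repeated spots of 12 probes were averaged, leaving 26962 probes. A mean per treatment was fitted over 12 arrays (9 residual degrees of freedom) with a variance trend on intensity and Benjamini-Hochberg adjustment over all probes with at least 3 of 4 values per compared group. The fit was tested on simulated data. The number of arrays limits the precision.

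Deviations from group means over 14797 probes correlated by 0.306 to 0.453 between TXOXGH and TXOXE2GH arrays of the same number, so these were paired, and by -0.175 to 0.210 and -0.148 to 0.108 for TXOXE2 with TXOXGH and TXOXE2GH, which were not. Identified members are those with the lowest mean among members with 12 values and both channels above background on 9 or more arrays. The members, lists and tests were chosen with earlier results of these data known. Gene and marker lists had been prepared but were not used, since no identifier matched a gene. Alternatives covered background correction, normalization, filters, variance estimates, the deposited table, the pairing and leaving out each array.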

Additional observations from a re-analysis of the deposited data

Results flagged for a closer look

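Of 81 sets of 4 arrays (a member in a treatment), 9 had 1 array far from the other 3 by Dixon's criterion, and chance flags about 1 in 20 such sets. After E2, member 12 was at -0.048 on replicate 2 against -1.11 to -1.07 on the others, member 20 at -1.73 on replicate 1 against -0.36 to -0.25, and member 28 at -0.91 on replicate 1 against -0.61 to -0.56. After GH, member 20 was at -0.89 on replicate 3 against -0.66 to -0.62. After both hormones, member 8 was at -2.07 on replicate 3 against -1.26 to -1.11, member 11 at -0.28 on replicate 1 against -1.69 to -1.58, member 15 at -2.06 on replicate 2 against -0.94 to -0.78, member 22 at -0.52 on replicate 4 against -0.90 to -0.88, and member 25 at -1.36 on replicate 2 against -0.67 to -0.54. Members 8, 15, 20, 25 and 28 stood apart towards lower ratios, and members 11, 12 and 22 towards 0.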

How the results depend on the processing

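None of the medians against TXOX changed sign under the alternatives run. The members were chosen for low ratios on these same spots, so nothing is read from that. The differences between treatments were recomputed as counts of calls only. The order of the medians after E2 and GH, -0.98 and -0.96, turned to -0.79 and -0.82 with a curve per block and to -0.92 and -1.02 with scaling between arrays. The number of members was 54 in the ratios recomputed from the intensities, all 29 among them; of the 25 others, 7 had too few values in the deposited table and 18 lay above the limit there. It was 26 with 4 values required per group, 27 with group medians (20 shared), 31 without background correction (28 shared), 40 with a loess curve per printed block (22 shared), 24 after subtracting the surrounding spots (19 shared; chosen after seeing the data, and run only on the 54 probes at the limit before subtraction), and 27 to 38 when leaving out 1 array. These counts come from unlike pools of probes. The recomputed ratios, also without background correction or with a curve per block, had 17974 probes with enough values. The deposited table had 11478, of which 7845 had 4 values per group. Members called lower in all 3 comparisons were 20 in limma, 12 with a curve per block and 16 with spots above background only. They were 24 with the replicate block over all 12 arrays, 14 to 20 when leaving out 1 array, and 19 or 20 under the remaining settings. The median after GH, -0.96, was -0.82 with a curve per block, -0.86 in the deposited table and -1.11 to -0.88 when leaving out 1 array. The median after both, -1.09, was -0.91 without background correction, -1.18 with background subtracted, -0.99 with a curve per block, -0.99 with spots above background only and -0.91 in the deposited table. Calls of members between treatments stayed at 0 except for E2 plus GH against GH with the replicate block on those 8 arrays (2 members), and when leaving out 1 array for E2 against GH and for E2 plus GH against E2 (0 to 1 each, members 4 and 20). In the settings that gave these calls, 75, 154 and 67 of all probes were called, in the same order. A replicate block on the compared arrays was not run against TXOX. The cause of these changes was not tested. Members 3, 5, 9 and 22 are limited by signal near background.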
